A study of Mus musculus with 6 samples.

Results

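The genes described here are those that copy DNA in S phase and prepare the cell for it: a list of 44 mouse genes, taken by gene symbol, all of which were present among the 24413 genes of the deposited FPKM table. They were followed in bulk RNA-seq of Tppp3+ cells from mouse Achilles tendon, sorted with gates on GFP and tdT, a population described as tendon progenitors. The treated cells spent 24 h in DRG conditioned medium, taken from cultured dorsal root ganglia (DRG), which hold the cell bodies of sensory neurons, and the control cells 24 h in 1% FBS, with 3 libraries in each group. All cells of both groups came from tendons of 3 male mice aged 12 weeks of the genotype Tppp3ECE/+;R26RtdT-CreERT2;ScxGFP, in which an inducible Cre recombinase under Tppp3 control switches on tdT and a GFP reports Scx. The ganglia came from 3 male C57BL/6J mice aged 12 weeks. They grew for 4 to 5 days with uridine and fluorodeoxyuridine, which stops dividing cells, at 20 µM each. New medium with 1% FBS was then put on, which was harvested each day, filtered at 0.22 µm and frozen. Secreted factors, use of the medium by the ganglion cells and any residue of fluorodeoxyuridine or uridine cannot be told apart in this design. Which mouse gave which library is not in the labels, so every p-value rests on the spread among these 6 libraries, which may be technical.

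A cell licenses its replication origins in G1, when the origin recognition complex, Cdc6 and Cdt1 load the ring of Mcm proteins on DNA. At the start of S phase, cyclin E and E2F activity rise, Cdc45 and the GINS complex turn the loaded ring into an active helicase, and primase, polymerases, the sliding clamp and its loader copy the strands while ribonucleotide reductase and thymidylate synthase supply building blocks. Many of these genes are known targets of E2F factors, and mRNA of the set is known to be high in cycling cells and low in resting ones.

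Of the 44 members, 41 had a mean of at least 1 FPKM (fragments per kilobase of gene at a common library size) over the 6 libraries and were tested, and Rpa1 alone passed, as a rise. That is 1 of 41, or 2.44%, where 763 of all 11678 genes tested passed, or 6.53% (472 higher, 4.04%, and 291 lower, 2.49%). The test was limma on log2(FPKM + 1) with Benjamini-Hochberg adjustment over all genes tested and a threshold of 0.05, and the log2 fold changes below, conditioned minus control, are on this scale, which understates changes of low genes. Over the 41 members the median log2 fold change was 0.02, with 29 above 0 and 12 below, against a median of 0.01 and 52.0% above 0 over all genes tested. The members' median was not stable: it was 0.06 without conditioned replicate 2, 0.01 without conditioned replicate 3, and 0.125 over the 12 members with a mean of at least 5 FPKM, of which 9 were above 0. At an unadjusted p below 0.05 there were 8 members, or 19.5%, against 19.6% of all genes, and all 8 of them were higher in conditioned medium. Of the 11678 genes tested, 1308 were higher and 982 lower at that level.

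Rpa1, the large subunit of replication protein A, which coats single-stranded DNA, had 14.3, 15.0 and 14.4 FPKM in conditioned libraries, against 11.3, 11.7 and 11.7 FPKM in control libraries. Every conditioned library lay above every control library. Its log2 fold change was 0.31 ± 0.04 SE (adjusted p = 0.0036 in limma), with a 95% interval of 0.21 to 0.40, and it passed in all 14 alternative settings tried. Rpa1 lies on chromosome 11 from 75298166 to 75348324 (mm10).

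**Figure D1:**
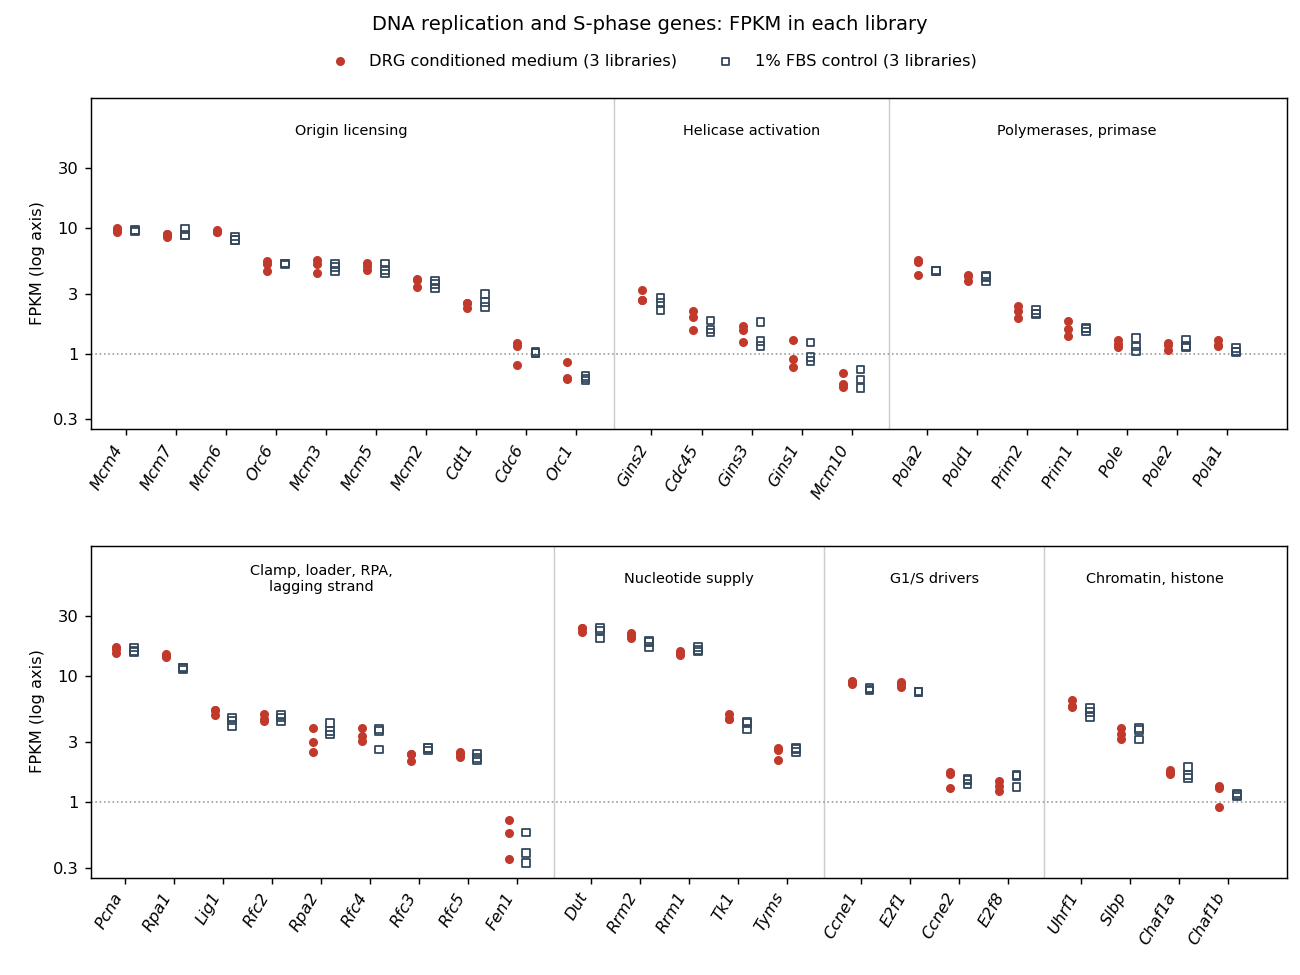
FPKM of the 44 members in each library on a log axis, by role, with conditioned libraries as filled circles left of control libraries as open squares, and a dotted line at the 1 FPKM needed for testing. Most members overlap between the groups, Rpa1 is clear of overlap, and Fen1, Orc1 and Mcm10 lie below the line.

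Library depth, as whole fragments recovered from the steps of the FPKM values, ran from 18774498 to 26061123 per library. Tendon markers were present in both groups: the collagen gene Col1a1 averaged 2662 ± 38.3 FPKM in conditioned and 3337 ± 35.8 FPKM in control libraries, and Scx, the tendon transcription factor, 11.5 ± 0.433 and 13.2 ± 0.551 FPKM (SD, n = 3 each). Tppp3 itself was low, with means of 0.908 and 0.903 FPKM, below the level for testing. Of 11 genes tested from the tendon marker list, 6 fell and 1, the surface marker Ly6a, rose (log2 fold change 0.46). The part of this in the results below was not tested. Summed over the markers in the table, DRG neuron markers (15 of 20 listed) gave 2.91 to 3.23 FPKM in conditioned and 3.55 to 3.83 FPKM in control libraries, and 0 of them reached the level for testing. Macrophage markers (7 of 10) gave 3.30 to 4.26 FPKM in conditioned and 3.63 to 5.12 FPKM in control libraries. Endothelial markers (7 of 8) gave 4.47 to 4.93 FPKM in conditioned and 5.81 to 6.58 FPKM in control libraries, most of it Tek, with Pecam1 and Cdh5 under 0.1 FPKM. Of the glia list (9 of 10), Pmp22, which fibroblasts also express, made up nearly all of 85.6 to 90.2 FPKM in conditioned and 82.7 to 87.1 FPKM in control libraries, and Sox10 was at or near 0. In bulk RNA a change in the share of cycling cells and a change in RNA per cell cannot be told apart.

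Of the 10 origin licensing genes, 9 were tested and 0 passed in limma (1 at an unadjusted p below 0.05, 0 with voom, limma's model for counts, on the recovered fragments). Mcm6, a subunit of the replicative helicase ring, had 9.28, 9.34 and 9.77 FPKM in conditioned libraries, against 8.60, 8.09 and 8.05 FPKM in control libraries. The groups did not overlap, but the log2 fold change of 0.18 ± 0.05 SE did not pass (adjusted p = 0.070 in limma, 95% interval 0.07 to 0.29). Mcm4, the most abundant ring subunit here, had 9.98, 9.67 and 9.26 FPKM in conditioned and 9.62, 9.67 and 9.39 FPKM in control libraries, with every control value inside the conditioned range. Its log2 fold change was 0.01 ± 0.05 SE, with an interval of -0.10 to 0.11. The other ring subunits averaged 8.84 ± 0.221 and 9.17 ± 0.645 FPKM (Mcm7), 5.05 ± 0.6005 and 4.91 ± 0.313 FPKM (Mcm3), 4.98 ± 0.307 and 4.75 ± 0.445 FPKM (Mcm5) and 3.76 ± 0.290 and 3.59 ± 0.231 FPKM (Mcm2) in conditioned and control libraries. All 4 overlapped between the groups, so Mcm6 was the ring subunit with the clearest separation, though its difference from the other subunits was not tested. Orc6, a subunit of the origin recognition complex, averaged 5.11 ± 0.469 FPKM in conditioned and 5.20 ± 0.0533 FPKM in control libraries. The loading factors averaged 2.48 ± 0.130 and 2.65 ± 0.311 FPKM (Cdt1) and 1.07 ± 0.221 and 1.03 ± 0.0154 FPKM (Cdc6). Orc1, an ATP-binding subunit of the origin complex, was not tested, with 0.707 ± 0.131 FPKM in conditioned and 0.639 ± 0.0279 FPKM in control libraries.

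Helicase activation genes were low and overlapped between the groups. Of 5, 4 were tested and 0 passed in limma (0 at an unadjusted p below 0.05, 0 with voom). Gins2, a subunit of the GINS complex, had 2.69, 3.20 and 2.67 FPKM in conditioned and 2.24, 2.77 and 2.54 FPKM in control libraries, a log2 fold change of 0.13 ± 0.08 SE. Cdc45, which binds the Mcm ring with GINS, had 1.98, 1.55 and 2.17 FPKM in conditioned and 1.56, 1.48 and 1.84 FPKM in control libraries, a log2 fold change of 0.14 ± 0.10 SE. In each the highest control library lay above at least the lowest conditioned one (adjusted p = 0.45 and 0.51 in limma). Gins3 averaged 1.49 ± 0.229 and 1.41 ± 0.344 FPKM, Gins1 0.997 ± 0.263 and 1.02 ± 0.187 FPKM, and the untested Mcm10, a helicase activator, 0.606 ± 0.0808 and 0.637 ± 0.108 FPKM in conditioned and control libraries. Gins2 shares 67.3% of its annotated exon bases with Gse1 on the opposite strand, and the strand setting of the counting is not given in the sources used here, so its level is uncertain.

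All 7 polymerase and primase genes were tested and 0 passed in limma (0 at an unadjusted p below 0.05, 0 with voom). Pola2, the regulatory subunit of the polymerase that carries primase, had 5.54, 5.40 and 4.24 FPKM in conditioned libraries, against 4.56, 4.58 and 4.61 FPKM in control libraries. Conditioned replicate 3 lay below all control libraries and the other conditioned libraries above them, and the log2 fold change was 0.11 ± 0.09 SE (adjusted p = 0.54 in limma). Pola2 is also the member whose FPKM rest on a gene length other than the annotated one, so its level cannot be set beside those of other genes. Pola1, its catalytic partner, averaged 1.204 ± 0.0753 FPKM in conditioned and 1.06 ± 0.0403 FPKM in control libraries with no overlap (adjusted p = 0.55 in limma). The primase subunits Prim1 and Prim2, the leading-strand polymerase subunits Pole and Pole2, and Pold1, the catalytic subunit of the main lagging-strand polymerase, overlapped between the groups, with log2 fold changes from -0.03 for Pole2 to 0.02 for Pole. Pold1 averaged 4.06 ± 0.224 FPKM in conditioned and 4.01 ± 0.208 FPKM in control libraries, and the other 4 lay between 1.15 and 2.18 FPKM in both groups.

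Clamp, clamp loader, RPA and lagging-strand genes held the call of Rpa1, 1 of 8 tested. Its partner Rpa2, the middle subunit of the same trimer, had 2.52, 3.87 and 2.97 FPKM in conditioned libraries, against 3.44, 3.66 and 4.27 FPKM in control libraries. The groups overlapped, and its log2 fold change was negative, -0.23 ± 0.12 SE, with a 95% interval of -0.52 to 0.06 (adjusted p = 0.37 in limma). With voom the log2 fold change of Rpa2 was -0.31, with an interval of -0.60 to -0.02 (adjusted p = 0.20 with voom). Rpa3, the small subunit, averaged 6.78 ± 0.655 FPKM in conditioned and 6.99 ± 0.589 FPKM in control libraries (adjusted p = 0.84 in limma). Of the 3 subunits Rpa1 passed and the others did not, and the difference between subunits was not tested. Pcna, the sliding clamp and a standard mark of proliferating cells, had 16.6, 15.3 and 17.2 FPKM in conditioned and 15.7, 15.9 and 17.02 FPKM in control libraries. All 3 control libraries lay inside the conditioned range, at a log2 fold change of 0.01 ± 0.05 SE (95% interval -0.11 to 0.14). Lig1, the ligase that joins lagging-strand fragments, averaged 5.24 ± 0.313 FPKM in conditioned and 4.40 ± 0.332 FPKM in control libraries with no overlap, a log2 fold change of 0.21 ± 0.07 SE that did not pass (adjusted p = 0.12 in limma). Rfc3, a clamp loader subunit, was the member whose groups separated with conditioned libraries lower, at 2.42, 2.13 and 2.39 FPKM, against 2.69, 2.69 and 2.57 FPKM in control libraries (log2 fold change -0.14 ± 0.06 SE, adjusted p = 0.28 in limma). The loader subunits Rfc2, Rfc4 and Rfc5 overlapped, at 4.66, 3.41 and 2.40 FPKM in conditioned and 4.66, 3.37 and 2.27 FPKM in control libraries. Fen1, the flap nuclease, was not tested at 0.545 ± 0.186 FPKM in conditioned and 0.430 ± 0.125 FPKM in control libraries, and 78.8% of its exon bases are shared with Gm10143 on the opposite strand, so its level is uncertain.

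The nucleotide supply genes include the most abundant members, and 0 of 5 passed in limma (2 at an unadjusted p below 0.05, 1 with voom). Dut, which removes dUTP, had 24.5, 24.5 and 22.7 FPKM in conditioned and 20.0, 23.2 and 24.3 FPKM in control libraries, with overlap and a log2 fold change of 0.09 ± 0.07 SE (adjusted p = 0.57 in limma). Rrm2, the small subunit of ribonucleotide reductase that limits its activity in S phase, had 20.1, 22.0 and 21.1 FPKM in conditioned libraries, against 17.1, 18.7 and 19.2 FPKM in control libraries. These groups did not overlap, and its log2 fold change of 0.19 ± 0.05 SE had an adjusted p of 0.086 in limma on FPKM and 0.0498 with voom, the setting among 14 in which it passed. The large subunit Rrm1 had 14.9, 15.3 and 15.8 FPKM in conditioned and 17.1, 15.7 and 16.3 FPKM in control libraries, a log2 fold change of -0.09 ± 0.05 SE (adjusted p = 0.35 in limma). The estimates of the subunits thus had opposite signs, without either passing in limma on FPKM. Thymidylate synthase (Tyms), the known target of fluorodeoxyuridine once phosphorylated, had 2.58, 2.71 and 2.17 FPKM in conditioned and 2.69, 2.504 and 2.64 FPKM in control libraries, with overlap and a log2 fold change of -0.05 ± 0.08 SE (adjusted p = 0.76 in limma). Tk1, the thymidine kinase that can phosphorylate that agent, averaged 4.74 ± 0.273 FPKM in conditioned and 4.13 ± 0.290 FPKM in control libraries with no overlap (log2 fold change 0.16 ± 0.06 SE, adjusted p = 0.22 in limma).

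Of the G1/S drivers, 0 of 4 passed in limma (2 at an unadjusted p below 0.05, 0 with voom) (median log2 fold change 0.10). E2f1, an activating E2F factor, had 9.09, 8.71 and 8.25 FPKM in conditioned libraries, against 7.48, 7.48 and 7.58 FPKM in control libraries. Ccne1, a cyclin E that activates Cdk2, had 8.72, 8.98 and 9.10 FPKM in conditioned and 7.84, 8.06 and 7.71 FPKM in control libraries. Both separated without overlap, with log2 fold changes of 0.19 ± 0.05 SE and 0.16 ± 0.04 SE, and both missed the threshold (adjusted p = 0.069 and 0.076 in limma). The repressor E2f8 averaged 1.35 ± 0.124 and 1.53 ± 0.177 FPKM and the other cyclin E, Ccne2, 1.55 ± 0.232 and 1.47 ± 0.0627 FPKM in conditioned and control libraries, with overlap.

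Of the chromatin and histone genes, 0 of 4 passed in limma (1 at an unadjusted p below 0.05, 0 with voom). Uhrf1, which keeps DNA methylation on newly copied strands, had 6.42, 5.79 and 5.68 FPKM in conditioned libraries, against 4.73, 5.61 and 5.18 FPKM in control libraries. The groups were separated by a narrow gap, with a log2 fold change of 0.17 ± 0.07 SE (adjusted p = 0.22 in limma). Slbp, which binds histone mRNA, averaged 3.52 ± 0.368 and 3.60 ± 0.398 FPKM, and the subunits of the histone chaperone CAF-1 1.72 ± 0.0566 and 1.69 ± 0.175 FPKM (Chaf1a) and 1.18 ± 0.234 and 1.14 ± 0.0289 FPKM (Chaf1b) in conditioned and control libraries. These 3 overlapped, and Chaf1a shares 52.5% of its exon bases with Ubxn6 on the opposite strand.

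**Figure D2:**
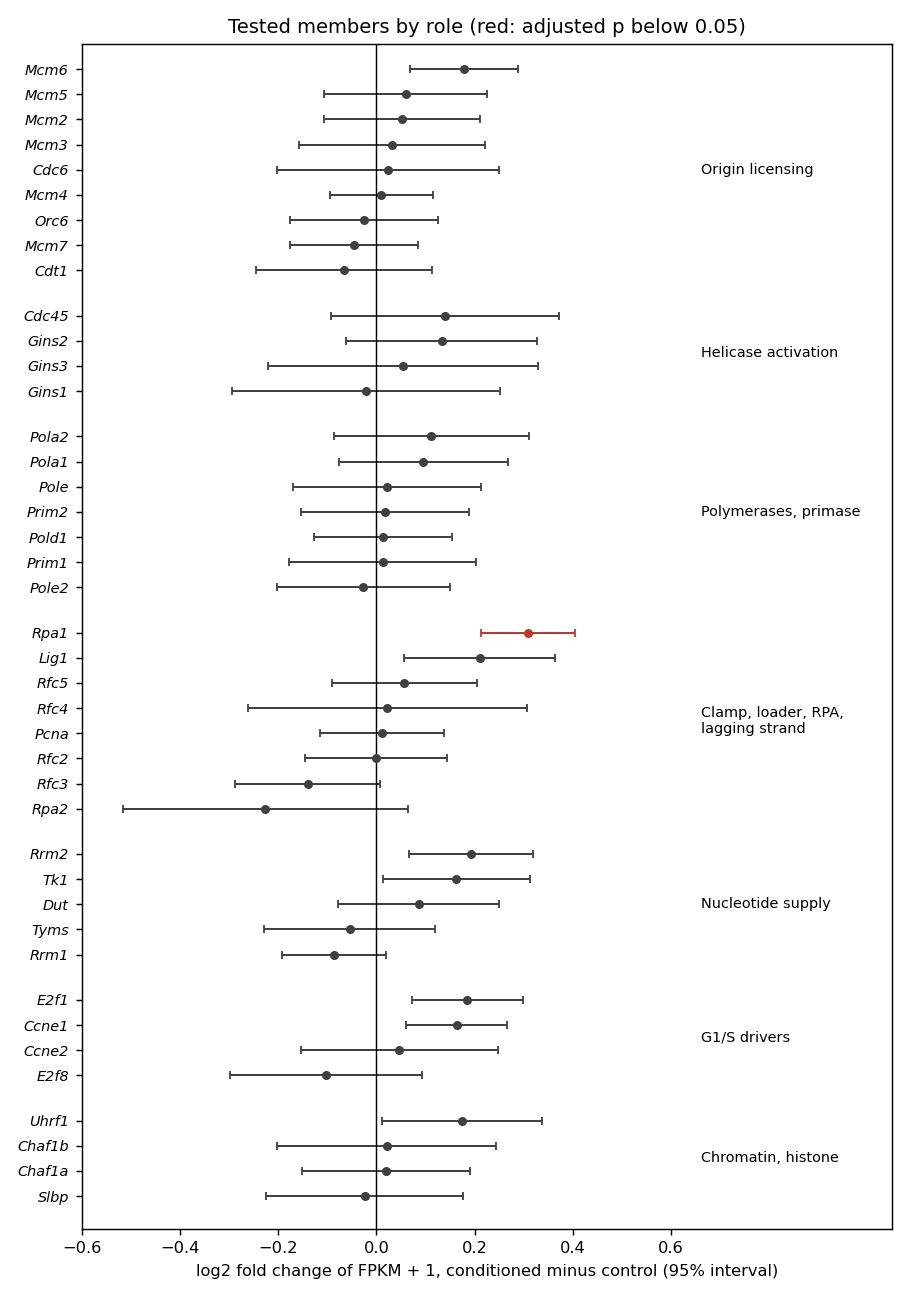
Log2 fold change of FPKM + 1, conditioned minus control, for the 41 tested members by role, with points for estimates and bars for 95% intervals. Rpa1, in red, is the member past the adjusted threshold, at 0.31, and the other estimates lie between -0.23 and 0.21.

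The intervals show which differences these libraries could still hold. On the log2(FPKM + 1) scale the 95% intervals, which are not adjusted for the number of genes, lay within a 1.25-fold change in either direction for 34 of 41 members and within 1.5-fold for all 41. With voom on the recovered fragments, a scale with no added 1, the counts were 20 and 39, and the exceptions at 1.5-fold were Gins1 and Rpa2. Tested members had 26 to 4545 fragments in a library. The median half-width of the interval on the log2(FPKM + 1) scale was 0.194 for the 19 members with a mean under 300 fragments and 0.147 for the 22 above it.

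Members whose groups did not overlap numbered 9 with conditioned libraries higher (Mcm6, Pola1, Rpa1, Lig1, Rrm2, Tk1, Ccne1, E2f1 and Uhrf1) and 1 with conditioned libraries lower (Rfc3). These are 22.0% and 2.44% of the 41 tested members, where 14.3% and 11.6% of all genes tested separated in those directions. The 9 belong to 6 of the 7 roles, helicase activation being the role with 0. Summed over the 41 tested members, expression was 226.9, 226.7 and 226.4 FPKM in conditioned libraries, against 207.2, 216.2 and 219.4 FPKM in control libraries, a sum to which the largest parts came from Dut, Rrm2, Pcna, Rrm1 and Rpa1. The median over members of the log2 value minus the gene's control mean was 0.07, 0.01 and 0.07 in conditioned libraries 1, 2 and 3, against -0.02, 0.01 and 0.01 in control libraries 1, 2 and 3. By this median conditioned library 2 lay among the control libraries. By the mean over members of the same quantity, 0.0476, 0.0296 and 0.0540 in conditioned libraries 1, 2 and 3 against -0.0339, 0.0178 and 0.0161 in control libraries 1, 2 and 3, and by the sum, every conditioned library lay above every control library.

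**Figure D3:**
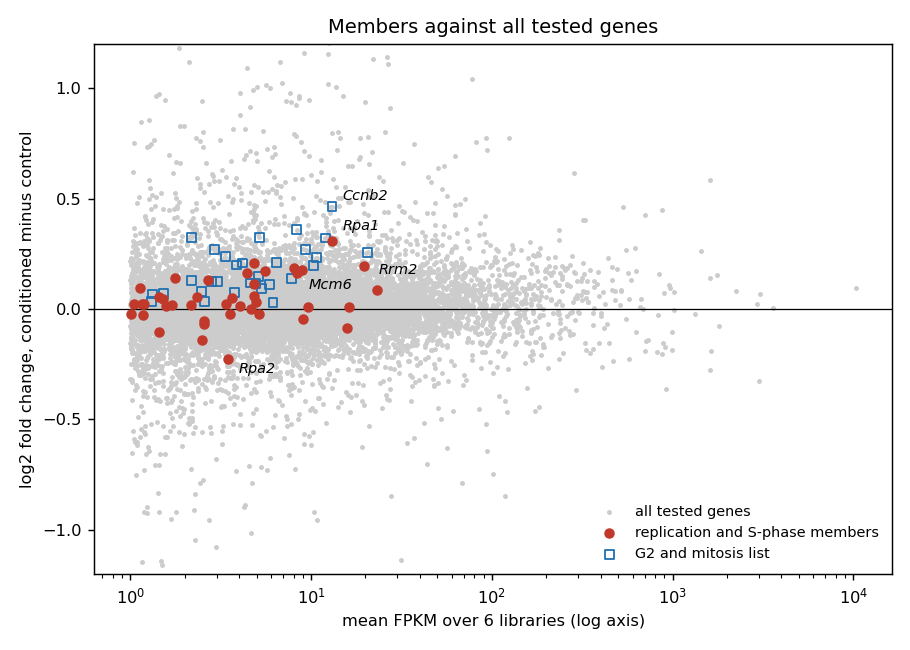
Log2 fold change against mean FPKM (log axis) for all 11678 tested genes in grey, the members as red circles and the G2 and mitosis list as blue squares; 37 genes beyond 1.2 on the vertical axis are not drawn. The members lie inside the grey cloud around 0, and the mitosis genes all lie above 0.

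Of 26 other replication factors tested, 0 passed in limma (3 at an unadjusted p below 0.05, 0 with voom), with a median log2 fold change of 0.02. Of 16 tested genes of S-phase chromatin and repair, 0 passed (1 at an unadjusted p below 0.05, 0 with voom), with a median of 0.05. Among 13 tested histone genes, whose mRNA mostly lacks the poly(A) tail by which these libraries were selected, 0 passed (2 at an unadjusted p below 0.05, 0 with voom). Their median was -0.09, with 2 above 0 and 11 below, and the 2 at an unadjusted p below 0.05 were higher. Of 14 other nucleotide enzymes tested, 2 rose and 12 did not pass, with a median of 0.03. Samhd1, which breaks down deoxynucleotides and is known to be interferon-inducible, had 13.7, 14.4 and 13.7 FPKM in conditioned libraries, against 10.6, 10.9 and 11.1 FPKM in control libraries, a log2 fold change of 0.33 ± 0.04 SE (adjusted p = 0.0030 in limma). Uck2, a uridine and cytidine kinase, averaged 15.3 ± 0.573 FPKM in conditioned and 13.3 ± 0.351 FPKM in control libraries (log2 fold change 0.19 ± 0.05 SE, adjusted p = 0.046 in limma), and lost its call in 11 of 14 settings.

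Other G1/S regulators had 3 lower, 0 higher and 23 not passing of 26 (median -0.05, 1 higher and 5 lower with voom). Cdkn1c, a Cdk inhibitor that is imprinted, had 6.72, 6.93 and 6.85 FPKM in conditioned libraries, against 9.38, 10.1 and 10.8 FPKM in control libraries, a log2 fold change of -0.50 ± 0.06 SE (adjusted p = 0.0014 in limma). Cdkn2b, an inhibitor of Cdk4 and Cdk6, averaged 91.3 ± 3.00 FPKM in conditioned and 112 ± 4.89 FPKM in control libraries, a log2 fold change of -0.29 ± 0.04 SE (adjusted p = 0.0059 in limma), which lost its call in 1 of 14 settings. Ccnd1, a cyclin that activates the same kinases, averaged 83.1 ± 1.81 FPKM in conditioned and 92.5 ± 0.775 FPKM in control libraries, a log2 fold change of -0.15 ± 0.03 SE (adjusted p = 0.030 in limma) that lost its call in 8 of 14 settings. The genes that fell thus include inhibitors of the step into S phase and a driver of it. Cdkn1a, the inhibitor p21, averaged 138 ± 1.90 FPKM in conditioned and 142 ± 2.30 FPKM in control libraries and did not pass (adjusted p = 0.50 in limma).

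Of 30 tested genes of G2 and mitosis, 8 rose, 0 fell and 22 did not pass, so that 26.7% were called, all higher, against 4.04% of all genes called higher. The median log2 fold change was 0.14 with 30 of 30 above 0, where the members had 1 of 41 called and a median of 0.02. With a filter at 5 FPKM the medians were 0.221 for the mitosis list and 0.125 for the members. Ccnb2, a mitotic cyclin, had 14.7, 15.1 and 16.05 FPKM in conditioned libraries, against 10.5, 11.8 and 10.2 FPKM in control libraries, a log2 fold change of 0.46 ± 0.06 SE (adjusted p = 0.0030 in limma). Plk1 and Kif20a, a kinase and a motor of mitosis, rose by 0.32 and 0.36, as did Hmmr, Cdc25c and Tpx2 by 0.32, 0.32 and 0.27 and Kif2c and Cdc20 by 0.24 and 0.26 on the log2 scale. Calls were lost for Kif20a in 2, Tpx2 in 6 and Hmmr and Cdc20 in 8 of 14 settings, and for Kif2c in 8 and Cdc25c in 10 of 13. Between settings the mitosis genes called ran from 2 (replicate block, and without conditioned replicate 1) to 9 (voom). The difference between the lists was not tested. The median over the mitosis list of the log2 value minus the control mean was 0.19, 0.12 and 0.18 in conditioned libraries 1, 2 and 3, against 0.01, 0.00 and -0.03 in control libraries 1, 2 and 3. By this median every conditioned library lay above every control library.

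**Figure D4:**
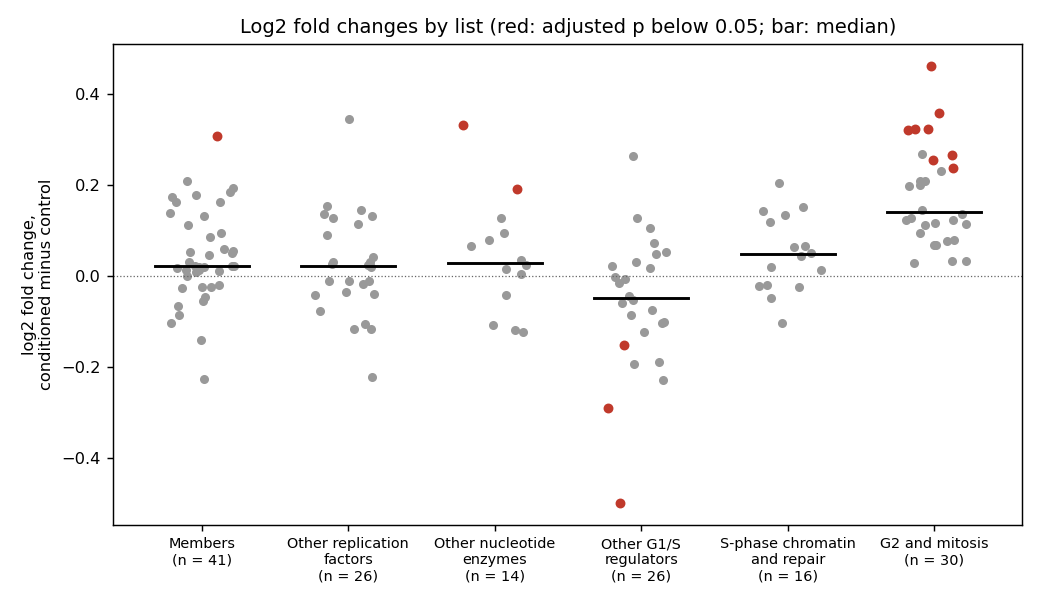
Log2 fold change, conditioned minus control, of each tested gene by list, with red points past the adjusted threshold and bars for medians. The members have a median of 0.02 and 1 call, and the G2 and mitosis list a median of 0.14 and 8 calls.

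**Figure D5:**
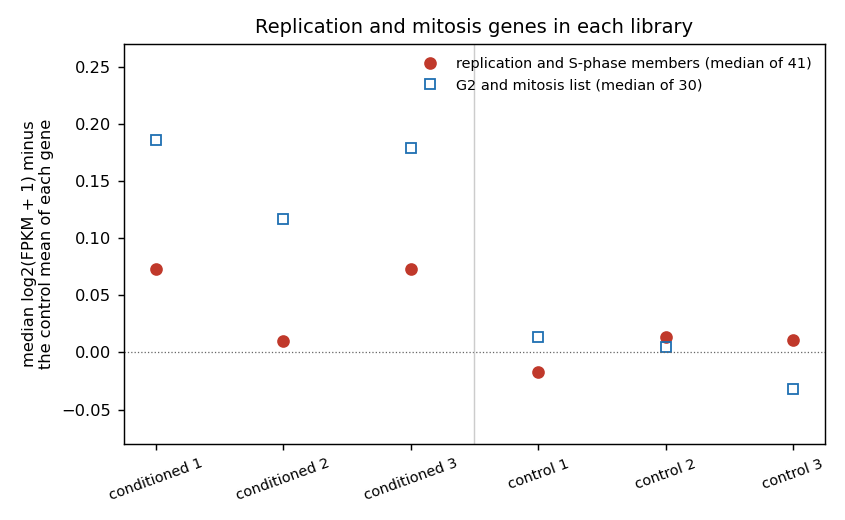
Median over genes of log2(FPKM + 1) minus the gene's control mean in each library, for the 41 tested members (red circles) and the 30 G2 and mitosis genes (blue squares), conditioned libraries on the left. The mitosis medians are 0.12 to 0.19 in conditioned libraries, and the members' are 0.01 to 0.07.

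An E2F motif was found in the promoters of some members. Many of these genes are known targets of E2F factors, so their share with the motif is not independent of how the list was made. Windows from 250 bases before to 50 bases after each RefSeq start (GRCm38.p6, the same assembly as mm10) matched 37 of the 44 members, and were searched on both strands for the E2F motif, spelled TTTCCCGC, TTTGGCGC, TTTCGCGC or TTTGCCGC, where a match on 1 strand may overlap a match on the other. At least 1 match was found for 14 of 37 members (37.8%), against 2.60% of all 27025 genes with a window and 1 of 25 matched genes of the G2 and mitosis list (4.00%). CCAAT, a motif bound by NF-Y, was found for 22 of 37 members (59.5%), 20 of 25 mitosis genes (80.0%) and 41.1% of all genes. A match describes the letters only and does not show that a factor binds. Rpa1, the member that rose, has no E2F match in this window. The window lies wholly before the annotated start of Rpa1, at 75348324 on the minus strand, so that start itself was not searched. Rrm2, which passed with voom, has no match either, while Mcm6 has 3 and Mcm5 and Rfc3 have 2 each. These 5 windows are given to show the motif in members with different readouts, 5′ to 3′ on the strand of the gene with E2F matches in capitals: Mcm6 at chr1:128359656-128359955 on the minus strand, Mcm5 at chr8:75109259-75109558 on the plus strand, Rfc3 at chr5:151651159-151651458 on the minus strand, Rrm2 at chr12:24708004-24708303 on the plus strand and Rpa1 at chr11:75348334-75348633 on the minus strand.
Mcm6: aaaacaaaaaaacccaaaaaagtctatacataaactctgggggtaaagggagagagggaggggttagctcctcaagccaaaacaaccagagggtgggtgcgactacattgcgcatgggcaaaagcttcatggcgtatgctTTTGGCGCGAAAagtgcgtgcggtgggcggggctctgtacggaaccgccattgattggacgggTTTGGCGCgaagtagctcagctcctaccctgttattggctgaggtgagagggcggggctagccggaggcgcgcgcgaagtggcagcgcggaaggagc
Mcm5: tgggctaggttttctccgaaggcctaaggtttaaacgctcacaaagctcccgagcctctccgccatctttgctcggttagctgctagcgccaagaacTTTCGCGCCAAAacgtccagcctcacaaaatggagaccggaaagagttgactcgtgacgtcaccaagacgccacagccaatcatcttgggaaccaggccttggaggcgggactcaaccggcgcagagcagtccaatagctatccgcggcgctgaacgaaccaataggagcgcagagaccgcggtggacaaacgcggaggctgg
Rfc3: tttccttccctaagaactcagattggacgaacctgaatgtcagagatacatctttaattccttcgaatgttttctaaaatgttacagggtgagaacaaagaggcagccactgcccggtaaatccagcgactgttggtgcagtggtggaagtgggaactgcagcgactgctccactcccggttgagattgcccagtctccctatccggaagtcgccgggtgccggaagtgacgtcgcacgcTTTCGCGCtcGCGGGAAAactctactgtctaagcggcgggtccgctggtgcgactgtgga
Rrm2: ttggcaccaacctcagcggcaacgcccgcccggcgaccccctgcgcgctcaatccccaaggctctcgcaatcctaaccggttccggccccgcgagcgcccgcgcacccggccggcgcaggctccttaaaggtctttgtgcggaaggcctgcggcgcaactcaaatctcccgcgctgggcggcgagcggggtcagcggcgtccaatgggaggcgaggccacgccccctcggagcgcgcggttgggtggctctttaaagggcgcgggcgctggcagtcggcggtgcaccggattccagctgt
Rpa1: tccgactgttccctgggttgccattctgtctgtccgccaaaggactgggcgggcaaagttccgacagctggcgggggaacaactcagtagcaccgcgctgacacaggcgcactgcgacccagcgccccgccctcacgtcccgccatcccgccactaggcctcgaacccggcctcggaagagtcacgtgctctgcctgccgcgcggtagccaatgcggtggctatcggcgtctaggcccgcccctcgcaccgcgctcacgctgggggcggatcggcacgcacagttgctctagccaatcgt
In Mcm6 the matches lie 110, 106 and 47 bases before the start, the first pair overlapping on opposite strands, and in Mcm5 the overlapping pair lies 153 and 149 bases before it. Mcm3 and Mcm7 also have 2 matches each in a window, which are not shown. The level of Mcm6 was 9.47 ± 0.270 FPKM in conditioned and 8.25 ± 0.306 FPKM in control libraries, that of Mcm5 overlapped between the groups, and that of Rfc3 was lower in conditioned medium without passing. Among all tested members with a match, estimates were negative for Mcm7, Rfc3, Cdt1 and Pole2 and positive for the others. Of the members that separated with conditioned libraries higher, Mcm6, Pola1, Lig1 and Uhrf1 have a match in a window searched. Rpa1, Rrm2, Tk1, Ccne1 and E2f1 have none in theirs. The E2f1 window, at chr2:154569377-154569676 on the minus strand, lies wholly inside the gene, after its annotated start at 154569892. As for Rpa1, the annotated start of E2f1 was not searched, so a match there was not tested. A link between match and change was not tested.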

How the data were processed

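Bulk poly(A) RNA-seq was made in 6 libraries of sorted tendon cells. Per the file headers, the authors deposited FPKM values per gene and library. CASAVA, HISAT2 2.0.5 and the mm10 build are listed per the submitters' processing notes, with no role given. For the counting program, annotation release, strand setting and filters, nothing is given in the sources used here. Of the gene IDs, 24403 were found in GENCODE M21, which gave coordinates and exon lengths. Those lengths turned the FPKM into whole fragments (tolerance 0.01) for 23574 genes. For 839 others, 801 of them on chromosomes 17, 18 and 19, the smallest length that gave whole numbers was taken, so their fragments may be too low, and 24412 of 24413 genes then came out whole. Libraries of a group differed by a chi-square of 3.02 or more per degree of freedom, so none was a copy.

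The 11678 genes whose mean reached 1 FPKM were tested as log2(FPKM + 1) with limma 3.58.1 in R 4.3.3 (trend and robust prior, no covariate, two-sided, Benjamini-Hochberg). The fit was tested on simulated data. Alternatives were a pseudocount of 0.1, no filter or one at 5 FPKM, no trend or robust prior, quantile or trimmed-mean scaling, a replicate block, voom on recovered fragments, and each library left out. Intervals come from the spread between libraries.

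Per-library values are given for members past the threshold and, in each role, for the member with the largest change and the highest level; of other lists, up to 6 genes past the threshold are named. The members and lists were chosen with earlier results of these data known. Values by library of Rfc3, Rpa2, Rrm1 and Tyms, and the genes Cdkn1a, Kif2c and Cdc20, were added after their values were seen. Python 3.11.15 (pandas 2.3.3, numpy 2.4.6) handled the tables, and matplotlib 3.10.9 the figures. No value column was left unused.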

Additional observations from a re-analysis of the deposited data

How the results depend on the processing

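The number of members past the threshold was 1 in 13 of 14 alternatives and 2 with voom on recovered fragments, where Rrm2 joined Rpa1. Rpa1 kept its rise in all 14, with log2 fold changes from 0.28 to 0.33 and adjusted p-values from 1.6e-04 to 0.030 in limma. Members that never passed include E2f1 (lowest adjusted p = 0.053) and Mcm6 (lowest adjusted p = 0.053). Over all genes the 763 calls became 492 with no filter on low values 390 with the replicate block and 1127 with voom, and 394 to 678 with a library left out (412 without conditioned replicate 1, 394 without conditioned replicate 2 and 462 without control replicate 2). The share of all genes called thus ran from 2.02% with no filter to 10.4% with a filter at 5 FPKM. The cause of these moves was not tested, and some of these settings also had fewer samples or a different number of genes. Deviations of same-numbered libraries correlated at -0.095, -0.008 and -0.048, so no effect shared by replicate number was seen. Whether same-numbered libraries share a mouse is not in the labels, and these correlations cannot decide it. The replicate block left 1 member called. Members near 0 changed sign: Mcm4 had -0.010 with quantile normalization and -4.0e-04 with voom, and -0.014 to 0.035 with a library left out. Pcna had -0.019 with quantile normalization and -0.023 to 0.055 with a library left out, and Tyms -0.10 to 0.013. None of these passed in any setting. Orc1, Mcm10 and Fen1, with 16 to 134 fragments in a library, entered the test with no filter alone, where they did not pass. The lowest tested value was 26 fragments, and intervals were wider for members with fewer fragments at the median, a difference whose cause was not tested.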
